A study of Homo sapiens with 4 samples.

Results

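The platelet-derived growth factor (PDGF) family was examined as 7 genes of the 20024 in the count table: the ligands PDGFA, PDGFB, PDGFC and PDGFD, the receptors PDGFRA and PDGFRB, and the receptor-like gene PDGFRL. They were matched by gene name, and all 7 were found. The family was selected on measured values of these same libraries, with their knockdown against control differences known. Those differences are therefore described for the members, with no test.

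PDGF ligands are secreted as dimers that bring receptor chains together at the cell surface, after which the paired kinases phosphorylate each other and recruit adaptors of the RAS and PI3K pathways. PDGF-A and PDGF-B are activated inside the cell by furin-type proteases, while PDGF-C and PDGF-D are secreted with a CUB domain that must be cut off. PDGF-A and PDGF-C act mainly through the alpha receptor, PDGF-D mainly through the beta receptor, and PDGF-B through both. In bone, PDGF is known as a mitogen of mesenchymal and osteoblast-lineage cells.

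SJSA-1 cells, a long-established line from a human osteosarcoma with an amplified MDM2 region, were profiled by RNA-seq of total RNA. The 4 libraries were 2 of genotype control and 2 of genotype ZNF217 knockdown, ZNF217 being a zinc finger protein that binds DNA and acts in repressor complexes. How the knockdown was made, what the control cells received and when cells were harvested is not stated. No label says that the libraries came from separate cultures. A p-value here thus reflects the variation among these 4 libraries, which may be technical. Totals ranged from 21466327 to 24487126 counts per library.

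ZNF217 was at 66.2 and 73.4 CPM (counts scaled to a common library total) in control replicates 1 and 2 and at 37.5 and 31.9 CPM in knockdown replicates 1 and 2. The groups did not overlap, and the direction was that of the labels (log2 fold change −1.01, SE 0.20, adjusted p = 0.207 by edgeR and 0.0118 by DESeq2). The spread within the control pair was wide, with a biological coefficient of variation of 0.393 against 0.0777 in the knockdown pair. Each member is for this reason set against each control library as well as against both. The line expressed MDM2 and CDK4, its known amplified genes, at 30.4 to 46.3 and 184 to 367 CPM. Of the 11 osteoblast and line markers 6 passed the low-count filter, and SP7, ALPL, BGLAP, IBSP and COL1A2 had at most 6 counts in any library. The list summed to 4080 and 4520 CPM in control and to 3260 and 3130 CPM in knockdown, mostly vimentin. The median log2 fold change of its 6 tested genes was 0.23, so that sum and median differed in sign. SPP1, osteopontin, was at 14.6 and 8.30 CPM in control and at 125.5 and 133.3 CPM in knockdown. It was the list's gene that DESeq2 called higher, beside 1.71% of genes.

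Promoter sequence from RefSeq was at hand for 4 of the 7 genes, in 8 windows of 250 bases before a transcription start. Those of PDGFA and PDGFRB are shown, the ligand with the most transcript per length in every library and the receptor that was close to undetected. The lines give the bases 5′ to 3′ on the minus strand that GENCODE places in no exon of the gene, at chr7:519847-519959, before an inner start of PDGFA, and at chr5:150155873-150156095 of GRCh38. Capitals mark matches on either strand to GGGCGG (the GC box bound by SP1), GCGNGGGCG (the EGR1 motif, which overlaps GC boxes here), CCAAT (the NF-Y motif) and TATAA.
PDGFA: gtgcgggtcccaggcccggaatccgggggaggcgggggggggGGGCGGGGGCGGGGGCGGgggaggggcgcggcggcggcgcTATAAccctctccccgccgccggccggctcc
PDGFRB: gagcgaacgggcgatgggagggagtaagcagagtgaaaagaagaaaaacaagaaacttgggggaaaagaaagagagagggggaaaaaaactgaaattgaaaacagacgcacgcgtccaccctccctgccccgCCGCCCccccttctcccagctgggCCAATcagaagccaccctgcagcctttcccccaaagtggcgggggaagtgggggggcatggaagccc

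The PDGFA stretch held 3 GC boxes and 2 overlapping EGR1 matches between 71 and 54 bases before the start, and a TATAA at 31 to 27 bases before it. The PDGFRB stretch held 1 GC box and 1 CCAAT and no EGR1 or TATAA match. A GC box was in 7 of the 8 windows and an EGR1 match in 2, both of PDGFA. Over all 34943 windows of the same length, 42.5% held a GC box, 8.39% an EGR1 match, 32.0% a CCAAT and 19.0% a TATAA. The letters CAGAA, the core of the motif described for ZNF217, were in 2 of the 8 windows, 1 of PDGFRA and 1 of PDGFRB, and in 48.0% of all windows. These matches are letters only, and binding was not measured.

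In the knockdown libraries PDGFA and PDGFB lay below both controls, PDGFD and PDGFRL lay above both, and PDGFC, PDGFRA and PDGFRB overlapped with the controls. Which member differed most depended on the control library, PDGFRL against control replicate 1 and PDGFB against control replicate 2. The low-count filter was passed by 6 of the 7 genes, all but PDGFRB, and 4 of these 6 had groups that did not overlap. Among all 12965 genes tested this held for 48.3%. Since the members were chosen with this contrast known, nothing is read from that count. The same 4 genes had groups apart when libraries were scaled by total counts, which moved the median log2 fold change of all tested genes from −0.01 to 0.11.

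**Figure D1:**
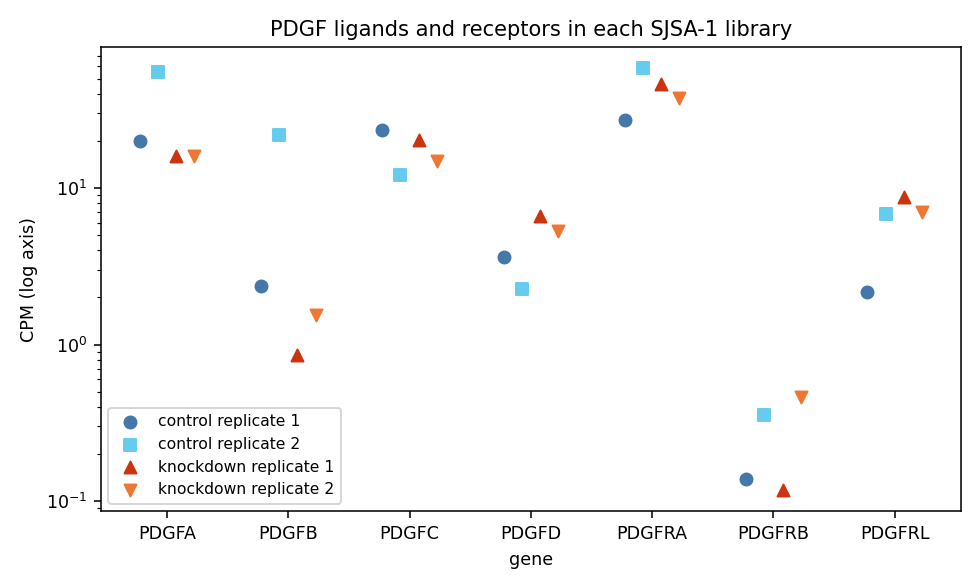
CPM (log axis) of the 7 genes in each of the 4 libraries, with 1 point per library. PDGFB and PDGFA stand highest in control replicate 2, at 21.8 and 55.2 CPM, and PDGFRB stays below 0.5 CPM in every library.

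PDGFB (ENSG00000100311, GRCh38 chromosome 22, 39223359 to 39244751, minus strand) encodes the B chain, the ligand that binds both receptors. It had 51 and 489 counts in control replicates 1 and 2 and 22 and 37 counts in knockdown replicates 1 and 2, or 2.36, 21.8, 0.859 and 1.54 CPM. Control replicate 2 stood far above the other 3 libraries, and both knockdown libraries were lower than either control.

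The knockdown libraries together were 1.98-fold lower in PDGFB than control replicate 1, with an exact 95% interval of 1.34 to 2.93 that covers counting error only. Against control replicate 2 they were 18.3-fold lower (14 to 24.5). The edgeR fit to all libraries gave a log2 fold change of −3.33 with a standard error of 1.11. Without control replicate 2 it was −0.98 (SE 0.41), and without control replicate 1 it was −4.20 (SE 0.24), where the lone control is assumed to vary like the knockdown pair. The direction was thus shared by both controls, while the size of the difference was set by which control was used.

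PDGFA (ENSG00000197461, chromosome 7, 497258 to 520296 on the minus strand) encodes the A chain, a ligand of the alpha receptor. It was at 20.1 and 55.2 CPM in control and at 15.96 and 16.09 CPM in knockdown, from 435, 1237, 409 and 386 counts. The knockdown libraries were nearly equal, and control replicate 2 again stood apart above the rest. The knockdown libraries were 1.25-fold lower than control replicate 1 (exact 95% counting interval 1.11 to 1.41) and 3.44-fold lower than control replicate 2 (3.15 to 3.77). The fitted log2 fold change was −1.23 (SE 0.49), and −0.33 (SE 0.17) without control replicate 2.

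PDGFC (ENSG00000145431, chromosome 4, 156760454 to 156971394 on the minus strand) encodes a ligand that needs its CUB domain removed, in which tissue plasminogen activator is known to act. It was at 23.4 and 12.04 CPM in control and at 20.2 and 14.8 CPM in knockdown, from 507, 270, 518 and 355 counts. Both knockdown libraries lay between the controls, so no direction was common to them. They were 1.33-fold lower than control replicate 1 (1.19 to 1.49) and 1.46-fold higher than control replicate 2 (1.27 to 1.68). The fitted log2 fold change was −0.02 (SE 0.39).

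PDGFD (ENSG00000170962, chromosome 11, 103907186 to 104164379 on the minus strand) encodes the other CUB-domain ligand, which signals mainly through the beta receptor. It was at 3.65 and 2.28 CPM in control and at 6.67 and 5.34 CPM in knockdown, from 79, 51, 171 and 128 counts. It was the only ligand with both knockdown libraries above both controls. The knockdown libraries were 1.65-fold higher than control replicate 1 (1.28 to 2.14) and 2.65-fold higher than control replicate 2 (1.96 to 3.64). The fitted log2 fold change was 1.02 (SE 0.41). An opposite-strand gene within it, DDI1, shares 193 exonic bases but had 0 counts in each of the libraries.

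PDGFRA (ENSG00000134853, chromosome 4, 54229097 to 54298247 on the plus strand) encodes the alpha receptor kinase. It was at 27.4 and 58.2 CPM in control and at 46.3 and 37.9 CPM in knockdown, from 593, 1304, 1187 and 909 counts. The knockdown libraries lay between the controls. They were 1.54-fold higher than control replicate 1 (1.41 to 1.69) and 1.38-fold lower than control replicate 2 (1.28 to 1.48), and the fitted log2 fold change was −0.02 (SE 0.39). The sign of the difference thus turned with the control used. PDGFRA shares 1533 exonic bases with AC058822.1, an annotated same-strand gene with 0 counts in each library. How reads in shared bases were counted is not stated, so the PDGFRA level is uncertain.

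PDGFRB (ENSG00000113721, chromosome 5, 150113837 to 150155872 on the minus strand) encodes the beta receptor, the kinase that PDGF-B and PDGF-D share. It had 3 and 8 counts in control and 3 and 11 counts in knockdown, which is 0.139, 0.357, 0.117 and 0.459 CPM. For comparison, a count of 0 would allow up to 3 counts, or 0.117 to 0.139 CPM. The libraries of both groups overlapped. The summed knockdown libraries were 2.03 times control replicate 1, with an exact interval of 0.568 to 11, and 0.791 times control replicate 2 (0.31 to 2.18). At this depth the counts leave the size and direction of any difference unresolved.

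PDGFRL (ENSG00000104213, chromosome 8, 17576433 to 17644071 on the plus strand) encodes a protein that resembles the extracellular part of the PDGF receptors and has no kinase. It was at 2.17 and 6.83 CPM in control and at 8.78 and 7.003 CPM in knockdown, from 47, 153, 225 and 168 counts. Control replicate 1 stood low, while control replicate 2 was just under the lower knockdown library. The knockdown libraries were 3.65-fold higher than control replicate 1 (2.69 to 5.05), and 1.16-fold higher than control replicate 2 (0.96 to 1.41). The fitted log2 fold change was 0.81 (SE 0.59), and 1.86 (SE 0.28) without control replicate 2. MTUS1, on the opposite strand, shares 277 exonic bases with PDGFRL and had 78, 38, 449 and 305 counts in the same order of libraries. Since the strand setting of the counting is not stated, reads of the shared bases cannot be told apart, and the part of MTUS1 in the PDGFRL difference was not tested.

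**Figure D2:**
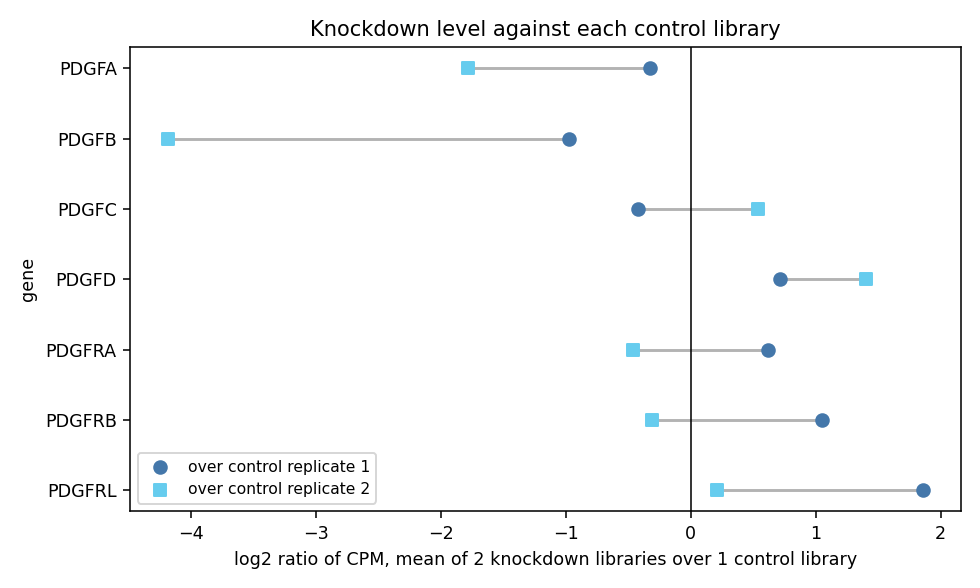
Log2 ratio of CPM, the mean of the 2 knockdown libraries over control replicate 1 (circles) or control replicate 2 (squares), with a line joining both values of a gene. PDGFA and PDGFB are below 0 and PDGFD and PDGFRL above 0 against either control, and PDGFC, PDGFRA and PDGFRB change sign between them.

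Set against a single control, which members past the filter differed by 2-fold or more depended on the control used. Against control replicate 1 the knockdown mean was at least 2-fold higher for PDGFRL alone, where 8.06% of all tested genes were. It was at least 2-fold lower for no member, beside 3.06% of all tested genes. Against control replicate 2 it was at least 2-fold lower for PDGFA and PDGFB, beside 10.1% of tested genes, and at least 2-fold higher for PDGFD, beside 11.1%. These comparisons share the knockdown libraries and have no replicate check on the control side.

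Per transcript length the balance of the ligands differed between libraries. These levels are in TPM, counts per gene length scaled to a fixed total in each library, taken as the deposited values divided by 10. PDGFA held the largest share of the 4 ligands in each library, at 47.3% and 61.4% of their summed TPM in the controls and at 42.7% and 48.4% in knockdown. PDGFB held 6.12% and 26.8% in control and 2.53% and 5.12% in knockdown, so that control replicate 2 was the only library with a large PDGFB share.

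PDGFC was the second ligand in 3 libraries, with 38.2% in control replicate 1 and 37.4% and 30.8% in knockdown, but 9.28% in control replicate 2. PDGFD held 8.37% and 2.47% in control and 17.4% and 15.6% in knockdown, with the groups apart. The summed ligand TPM was 34.5 and 60.2 in control and 29.9 and 25.4 in knockdown. Of the TPM of both receptor kinases, PDGFRA held 98.4% to 99.7% in every library, so that the receptor kinase transcripts of this line were almost wholly those of the alpha receptor.

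**Figure D3:**
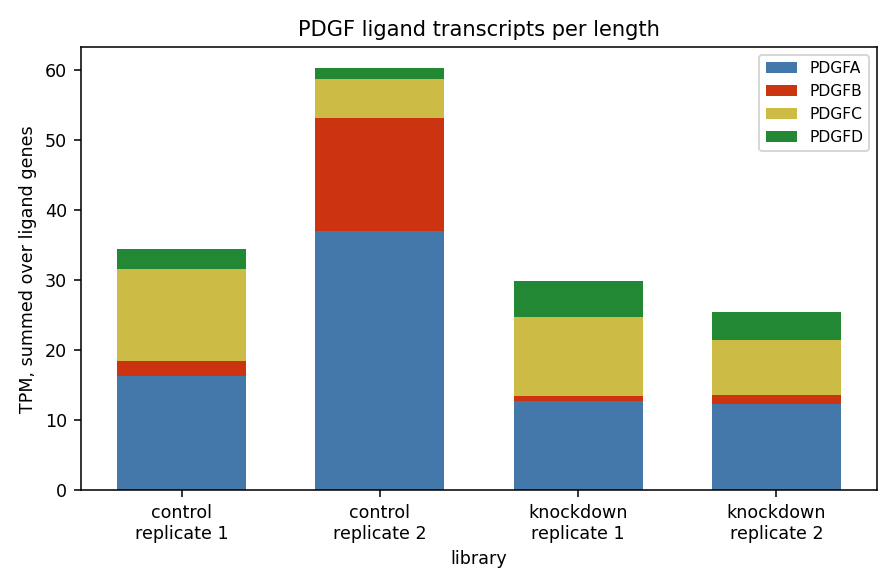
TPM of PDGFA, PDGFB, PDGFC and PDGFD stacked in each of the 4 libraries. Control replicate 2 reaches 60.2 TPM, the other libraries 25.4 to 34.5, and the PDGFB segment is wide in control replicate 2 alone.

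The order of the mean levels also differed between the groups, but the control libraries did not share an order with each other. In knockdown, mean TPM was 14.3 ± 2.46 for PDGFRA, 12.5 ± 0.307 for PDGFA, 10.7 ± 2.01 for PDGFRL, 9.50 ± 2.36 for PDGFC, 4.58 ± 0.858 for PDGFD, 1.03 ± 0.386 for PDGFB and 0.129 ± 0.106 for PDGFRB (SD, n = 2). The libraries of PDGFRA and PDGFA overlapped, and so did those of PDGFRL and PDGFC. PDGFA and PDGFRL did not overlap, and PDGFD, PDGFB and PDGFRB lay apart from each other. In control the means were 26.7 ± 14.6 for PDGFA, 13.3 ± 5.15 for PDGFRA, 9.38 ± 5.36 for PDGFC, 9.13 ± 9.92 for PDGFB, 5.46 ± 3.43 for PDGFRL and 2.19 ± 0.992 for PDGFD. The SD ranges of neighbours among these 6 overlapped. PDGFRB was last at 0.102 ± 0.0521 TPM, with both control libraries below every control library of these 6, though the SD range of PDGFB covers it. PDGFB ranked between the second and the last of the ligands, depending on the control library.

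The libraries within each pair differed more in most members than in the median gene. This held for 6 of the 6 members past the filter in the control pair and for 5 in the knockdown pair. Since the members were chosen on values of these same libraries, nothing is read from these or the following counts of members. Control replicate 2 was 9.25-fold above control replicate 1 in PDGFB (exact 95% counting interval 6.93 to 12.6), and 98.7% of tested genes had a smaller difference on the log2 scale. It was 3.14-fold above in PDGFRL, 2.74-fold in PDGFA and 2.12-fold in PDGFRA, ahead of 92.2%, 89.6% and 81.6% of tested genes. PDGFC and PDGFD were lower in control replicate 2, by 1.95-fold and 1.61-fold. Control replicate 2 was thus 2-fold or more above control replicate 1 in 4 members, beside 12.6% of all tested genes, and 2-fold or more below it in 0, beside 8.65%. The knockdown libraries differed by 1.8-fold in PDGFB (1.03 to 3.2), and 97.6% of tested genes differed less. PDGFC and PDGFRL differed by 1.37-fold (1.19 to 1.57) and 1.25-fold (1.02 to 1.54) there, ahead of 91.1% and 84.3% of tested genes. PDGFD and PDGFRA differed by 1.25-fold (0.989 to 1.59) and 1.22-fold (1.12 to 1.33), ahead of 84% and 80.9%. PDGFA differed by 1.01-fold, ahead of 4.74%, and 1.69% of tested genes reached 2-fold there.

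The PDGF response genes differed between the same controls. Among the 15 genes listed as PDGF-induced immediate early genes, which growth factors, serum and stress switch on within minutes, control replicate 2 held more than control replicate 1 of 11, where it held more of 49.9% of all tested genes. EGR1, a factor that acts on the PDGFA and PDGFB promoters, reached 22.2 and 518 CPM in the controls and 23.9 and 24.6 CPM in knockdown. FOS, a component of AP-1, stood at 21.4 and 724 CPM in control and at 21.2 and 27.7 CPM in knockdown. CCN2, a matricellular protein, went the other way, at 610 and 171 CPM in control and at 120 and 123 CPM in knockdown, and MYC and FOSL1 were also lower in control replicate 2 than in control replicate 1. PDGFA, PDGFB, EGR1 and FOS were highest in control replicate 2, and whether the state of that library set the PDGF levels was not tested.

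For the immediate early genes the median log2 fold change was −1.35, and over all tested genes it was −0.01. The median of their log2 ratios was 0.13 against control replicate 1 and −1.61 against control replicate 2. Both knockdown libraries lay below both controls for 7 and above for 1, beside 22.9% and 25.4% of all tested genes. DESeq2 called 4 of the 15 lower (CCN1, CCN2, JUN and MYC) and edgeR 0, with an unadjusted edgeR p under 0.05 for 7, all lower. Of the genes to which DESeq2 gave an adjusted p, it called 2.00% lower and 3.71% in either direction. The unadjusted edgeR p was under 0.05 for 13.0% of all tested genes.

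The immediate early genes with the smallest edgeR p were CCN1, MYC, JUN and FOSL1. CCN1, a matricellular protein, was at 250 and 373 CPM in control and 114 and 122 CPM in knockdown, with a log2 fold change of −1.40 (SE 0.25) and an adjusted p of 0.177 by edgeR and 0.000438 by DESeq2. MYC, a growth-promoting transcription factor, was at 49.3 and 41.8 CPM and at 15.5 and 20.3 CPM (log2 fold change −1.35, SE 0.24, adjusted p = 0.177 by edgeR, 0.00142 by DESeq2). For these genes the groups did not overlap, and in MYC the controls were close to each other. The AP-1 factor JUN was at 244 and 583 CPM in control and 109 and 114 CPM in knockdown (log2 fold change −1.89, SE 0.43, DESeq2 adjusted p = 0.000574), and its partner FOSL1 at 817 and 711 and at 439 and 515 CPM (DESeq2 adjusted p = 0.14).

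Over the 7 pathway lists, 85 of 93 genes passed the low-count filter. edgeR called 0 of them, as it called 0 of all tested genes, and 2 higher and 16 lower had an unadjusted p under 0.05, beside 13.0% of all tested genes. DESeq2 called 6 lower, the 4 above with KLF2 and PGF, and 0 higher, where it called 2.00% of genes lower and 1.71% higher. Both knockdown libraries lay below both controls for 34 genes and above both for 14, beside 22.9% and 25.4% of all tested genes. With scaling by total counts these were 23 and 18, beside 16.4% and 32.0% of all tested genes.

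**Figure D4:**
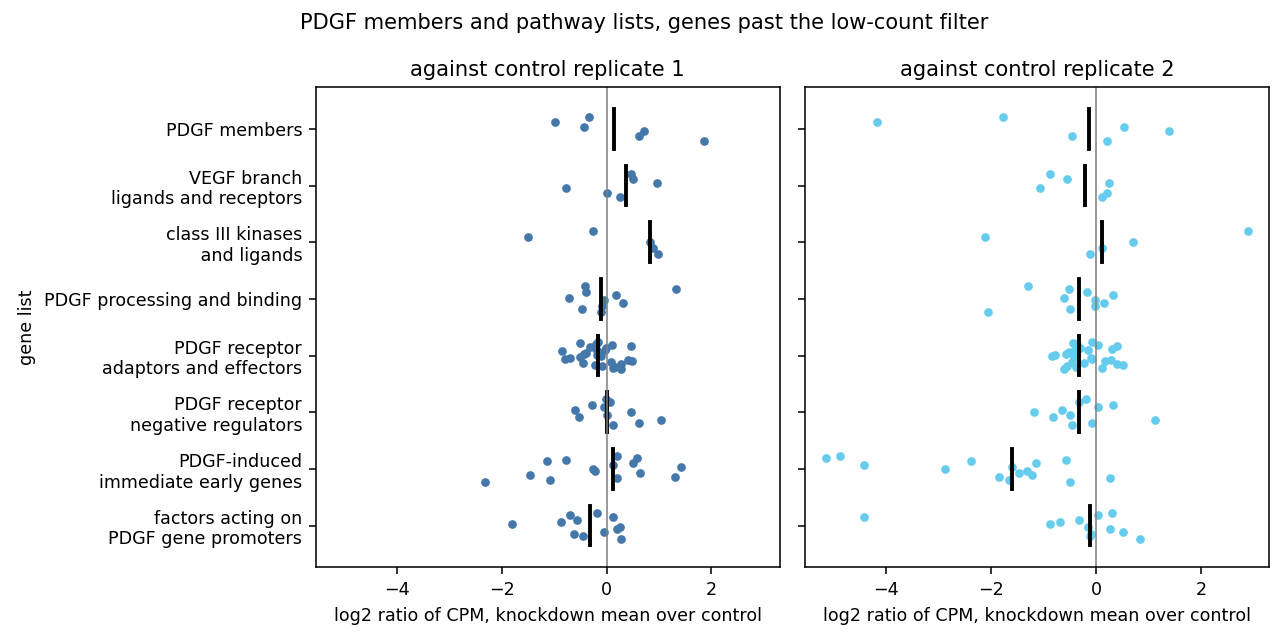
Log2 ratio of CPM, the mean of the 2 knockdown libraries over each control library, for every gene past the low-count filter in the PDGF family and 7 pathway lists. Black bars are medians, and that of the immediate early genes moves from 0.13 against control replicate 1 to −1.61 against control replicate 2.

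Among the genes that process or bind PDGF, 6 of 10 lay below both controls and 2 above. Of all tested genes 22.9% lay below both and 25.4% above. The median log2 fold change of the list was −0.17, and that of all tested genes −0.01. FURIN, the protease that cuts PDGF-A and PDGF-B precursors, was at 62.3 and 115 CPM in control and at 50.7 and 42.7 CPM in knockdown. PLAT, tissue plasminogen activator, was at 16.3 and 15.03 CPM and at 10.5 and 9.25 CPM. Each had groups that did not overlap and an edgeR adjusted p of 0.36 and 0.373. The coreceptor NRP2 was at 56.5 and 57.7 CPM in control and 43.7 and 38.6 CPM in knockdown. LRP1, an endocytic receptor that associates with the beta receptor, was at 5.08 and 19.7 CPM in control and at 4.64 and 4.79 CPM in knockdown, so that control replicate 2 stood apart there too.

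Among 28 tested adaptors and effectors of the receptors, 12 lay below both controls and 5 above, beside 22.9% and 25.4% of all tested genes. Their median was −0.26, beside −0.01 for all tested genes. With scaling by total counts these medians were −0.13 and 0.11. The phospholipase PLCG1, which docks on the receptors, was at 147 and 163 CPM in control and at 107 and 113 CPM in knockdown (edgeR adjusted p = 0.343). The RAS exchange factor SOS1 was at 27.9 and 27.0 CPM and at 21.4 and 18.2 CPM. PIK3CB, a catalytic PI3K subunit, was at 33.5 and 34.9 CPM and at 25.7 and 25.3 CPM, and the SRC-family kinase YES1 at 78.8 and 74.3 CPM and at 64.0 and 47.3 CPM. For these 4 genes the controls were close to each other and above both knockdown libraries, but edgeR and DESeq2 called none of the 28.

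The 11 negative regulators had a median of −0.13, with 2 below both controls and 1 above, beside 22.9% and 25.4% of all tested genes. PTPN12, a tyrosine phosphatase, was at 170 and 178 CPM in control and at 121 and 105 CPM in knockdown (edgeR adjusted p = 0.288). SOCS1, a suppressor of cytokine signalling, was at 1.94 and 1.83 CPM and at 4.06 and 3.88 CPM (edgeR adjusted p = 0.344). The adaptor GRB14 was at 9.34 and 11.5 CPM in control and at 6.20 and 6.80 CPM in knockdown. Its relative GRB10 was at 189 and 266 CPM and at 205 and 174 CPM, with groups that overlapped. Neither edgeR nor DESeq2 called a gene of this list. The edgeR p was under 0.05 unadjusted for 1 higher and 1 lower, beside 13.0% of all tested genes.

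Among the 12 factors known to act on PDGF gene promoters, 5 lay below both controls and 2 above, with a median of −0.34. Of all tested genes 22.9% lay below both and 25.4% above, with a median of −0.01. ETS1 was at 158 and 138 CPM in control and at 92.9 and 79.0 CPM in knockdown (adjusted p = 0.247 by edgeR, 0.07 by DESeq2). KLF2, a flow-responsive factor of endothelial cells, was at 33.5 and 17.7 CPM and at 9.48 and 9.67 CPM, and DESeq2 called it lower (log2 fold change −1.42 and SE 0.37 by edgeR, DESeq2 adjusted p = 0.0187). NFYC, a subunit of the CCAAT-binding NF-Y, was at 76.8 and 52.0 CPM and at 91.2 and 95.2 CPM.

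The related VEGF branch had 6 tested genes with a median of 0.00. Of these, 2 lay above both controls and 1 below, beside 25.4% and 22.9% of all tested genes. PGF, placental growth factor, was at 34.99 and 43.2 CPM in control and at 20.6 and 20.5 CPM in knockdown, with a log2 fold change of −0.93 (SE 0.21) and an adjusted p of 0.237 by edgeR and 0.0467 by DESeq2. VEGFC, the lymphatic ligand, was at 32.6 and 53.4 CPM and at 64.97 and 62.3 CPM. VEGFA was at 100 and 256 CPM in control and at 147 and 131 CPM in knockdown, between the controls as PDGFRA was, and the receptor FLT4 was at 8.78 and 9.68 and at 9.91 and 11.1 CPM.

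The other class III receptor kinases and their ligands had 5 tested genes with a median of 0.44. Of these, 2 lay above both controls and 1 below, beside 25.4% and 22.9% of all tested genes. CSF1, the macrophage growth factor, was at 14.98 and 16.2 CPM in control and at 25.7 and 27.6 CPM in knockdown (edgeR adjusted p = 0.284). Its receptor CSF1R was at 1.02 and 1.56 CPM and at 0.39 and 0.334 CPM. FLT3 was at 1.02 and 1.74 CPM and at 1.87 and 1.88 CPM, and its ligand FLT3LG at 2.63 and 5.62 CPM and at 4.76 and 5.59 CPM. KIT had at most 6 counts in any library.

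The genes whose levels moved most alike over the 4 libraries were found by the Euclidean distance between centred log2 CPM, a description over 4 points that share their libraries. For PDGFA they were KCNJ14, ADGRG1 and SLC26A6, at distances of 0.0344 to 0.0491. For PDGFB they were IL37, BEAN1 and DGAT2, at distances of 0.657 to 0.82. The distance is not scaled by the size of a profile. That of PDGFB, which differed most between the controls, is therefore not compared with those of the other members. PDGFC was nearest to ANO4, KIF18A and SMAD5 (0.0811 to 0.101), and PDGFD to LZTFL1, DTX3L and MPP7 (0.0638 to 0.103). PDGFRA was nearest to RCAN3, GLIS3 and PDLIM3 (0.0267 to 0.0608), and PDGFRL to TMEM200C, RDH10 and CLEC2B (0.0507 to 0.103). A small count was added before taking logs, which draws genes with few counts together. TMEM200C was at 0.0925 CPM in control replicate 1 and IL37 at 0.117 CPM in knockdown replicate 1, so their distances rest on few counts.

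PDGF receptors also mark mural cells and fibroblasts, and the markers of other cell types were summed for each library. Of 9 mural markers 7 passed the filter, and the sum was 129 and 214 CPM in control and 83.2 and 75.4 CPM in knockdown. Both knockdown libraries were lower than both controls in CSPG4, a proteoglycan of pericytes and also of many tumour cells, which held 85.8 and 168 CPM in control and 48.0 and 41.3 CPM in knockdown. MCAM, CSPG4 and NOTCH3 lay below both controls, the last 2 called by DESeq2, and RGS5, ACTA2 and KCNJ8 lay above both. Of all tested genes 22.9% lay below both controls and 25.4% above, and DESeq2 called 2.00% of genes lower. The median log2 fold change of the 7 mural markers was 0.54, so that their sum, mostly CSPG4, and the median differed in sign. ACTA2, smooth muscle actin, was at 1.34 and 6.16 CPM in control and at 8.98 and 8.84 CPM in knockdown. MYH11 had at most 6 counts in any library and DES at most 4. Of 8 endothelial markers 3 passed, with sums of 293 and 152 CPM in control and 155 CPM in each knockdown library, nearly all of it TIE1. CDH5 had at most 1 count in any library, and CLDN5 had 0. Of 8 haematopoietic markers 2 passed, with sums of 77.7 to 79.7 CPM in control and 49.9 to 52.2 CPM in knockdown, mostly CD68, and MS4A1 and HBB had 0 counts. The 5 epithelial markers summed to 0.786 to 2.54 CPM in control and 0.917 to 1.09 CPM in knockdown. All libraries are labelled as SJSA-1 cells, so these are levels of marker genes in cultures of that line. The part of any of these genes in the PDGF levels was not tested. In bulk RNA, fewer cells of the line expressing a gene and less RNA per cell cannot be told apart.

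The authors' deposited table of DESeq2 results gives other values for the family than their counts do. For PDGFB the authors' deposited table gives a control over knockdown log2 fold change of 0.17 (SE 0.44), where DESeq2 on the 4 deposited count columns gave 3.35. For PDGFD the authors' deposited table gives −2.13 (SE 0.55), against −1.003 from the counts. The direction for PDGFD is the same in both, and the size differs.

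For PDGFA the authors' deposited table gives −0.08 where the counts gave 1.25, and for PDGFRL −0.55 where they gave −0.79. The mean normalized count of PDGFRB in the authors' deposited table is 40.1, above the highest normalized count of any of the 4 libraries, 10.7. For PDGFC it is 959 against a highest value of 548. The same was found for 37.1% of the genes tested here. Which libraries entered the authors' deposited table is not stated.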

How the data were processed

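RNA of 2 control and 2 ZNF217 knockdown libraries of SJSA-1 cells was analysed. The authors deposited counts, whole reads per gene and not normalized. The tools named in the submitters' processing notes are HISAT2, Trimmomatic, DESeq2 and Subread, and the build is GRCh38; the annotation and strand setting of the counting are not stated. The authors also deposited a length-scaled signal per library, 10 times TPM, and DESeq2's mean normalized count, log2 fold changes, Wald score, p-values and adjusted p-values, per the file headers. The gene length in the deposited count table was used only to check the signal.

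Counts were fitted with edgeR 4.0.16 in R 4.3.3 (quasi-likelihood test, TMM, default low-count filter, 12965 of 20024 genes, two-sided p adjusted by Benjamini-Hochberg, threshold 0.05). Knockdown was compared with control, and the standard error was taken from the fold change and its F statistic. CPM used TMM-scaled totals. DESeq2 1.42.0 and limma 3.58.1 were alternatives; other scaling, filters, a replicate block and each library left out were also tried. The fit was checked on simulated counts. Ratios between libraries have exact binomial 95% intervals for counting error only. Gene positions are from GENCODE release 29 and promoters from RefSeq (GRCh38.p14). Figures used matplotlib 3.10.9.

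The members and lists were chosen with earlier results of these data known. Named genes were ZNF217, the 7 members, in each pathway list up to 4 genes with the smallest edgeR p, and the 3 nearest profiles of each member past the filter. EGR1, FOS and CCN2 among the immediate early genes, CSPG4 and marker genes were named beside these after their values were seen.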

Additional observations from a re-analysis of the deposited data

How the results depend on the processing

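PDGFA and PDGFB were lower and PDGFD and PDGFRL higher in knockdown under every alternative run, while PDGFC and PDGFRA changed sign with the control used. Scaling by total counts also turned PDGFC and PDGFRA, to 0.08 and 0.12. So did limma-voom (0.05 and 0.07), log2(TPM + 1) (0.10 and 0.14) and leaving out knockdown replicate 2 (0.19 and 0.12). Leaving out each library in turn gave log2 fold changes of −1.79 to −0.33 for PDGFA, −4.20 to −0.98 for PDGFB, −0.42 to 0.53 for PDGFC, 0.72 to 1.39 for PDGFD, −0.48 to 0.62 for PDGFRA and 0.20 to 1.86 for PDGFRL. The ends of these ranges came from leaving out control replicate 1 or control replicate 2. For PDGFRL the low end, 0.20, came without control replicate 1. Over control replicate 2 its ratio had a counting interval of 0.96 to 1.41, which includes no difference.

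For the lists it gave medians of −0.22 to 0.36 (VEGF branch), 0.10 to 0.83 (class III receptor kinases), −0.34 to −0.10 (processing and binding), −0.36 to −0.16 (adaptors), −0.33 to 0.00 (negative regulators), −1.62 to 0.13 (immediate early genes) and −0.32 to −0.12 (promoter factors). With total counts the medians of processing genes and adaptors were −0.058 and −0.13, and with log2(TPM + 1) −0.055 and −0.15. On the latter scale PDGFB was at −1.86.

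Against 0 calls by edgeR, 16 genes were called higher and 3 lower without a low-count filter, and 229 and 267 by DESeq2. Leaving out a library gave 12 to 3710 higher and 3 to 3729 lower genes, where a lone library is assumed to vary like the other group. Limma-voom, other scaling, a stricter filter and a threshold of 0.01 left 0 calls. With the replicate number as a block, 160 and 124 genes were called. Same-numbered libraries did not deviate together (r = −0.03 across genes), and no source pairs them. PDGFB was at −2.71 in that fit, and the block turned the sign of no other member than PDGFC and PDGFRA (0.04 and 0.07). Depth limits PDGFRB, whose 3 to 11 counts allow no fold. The cause of these shifts was not tested.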
